A study of Homo sapiens with 15 samples.

Results

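The genes described here are 10 regulators of cell death in A549 cells: the BCL2 family genes PMAIP1, BCL2A1, MCL1, BCL2L1, BAX, BAK1, BBC3 and BID, and the inhibitor of apoptosis genes BIRC2 and BIRC3. Their probe sets were taken by symbol from the annotation of the Affymetrix human array, without a rule on their values. The list of genes was chosen with earlier results of these data known. Of the 10, 8 had a probe set annotated to that gene alone, among 11963 such genes on the array. These 8 genes have 17 of the 22283 probe sets. The probe set of BBC3 is shared with microRNA genes in the annotation, so its signal was not used, and BIRC3 was not analysed here. All 8 measured members were bright enough to be tested, with a mean log2 signal above 6.33, the median of all probe sets other than array controls.

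A549, labelled as a bronchial cell line, is a human lung adenocarcinoma line of epithelial origin. Total RNA was measured on 15 arrays in 5 groups of 3: untreated control cells at 0 h, untreated control cells at 24 h, and cells given IL-13 for 4 h, for 12 h or for 24 h. IL-13 is the T helper cytokine that drives mucus production and airway hyperresponsiveness in allergic asthma. The labels give no dose of IL-13, no passage and no medium, and do not say whether the 3 arrays of a group came from separate cultures, so the p-values rest on the spread of arrays that may be technical copies. IL-13 at 24 h can be set against untreated cells of the same time. No untreated arrays of 4 h or 12 h were among the samples, so at those times IL-13 and time in culture cannot be told apart. The comparisons of 4 h, 12 h and 24 h of IL-13 with 0 h share the same 3 control arrays.

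Proteins of the BCL2 family decide whether the outer mitochondrial membrane stays intact. Survival proteins such as MCL1, BCL-xL (from BCL2L1) and A1 (from BCL2A1) hold the pore-forming effectors BAX and BAK in check. BH3-only proteins such as NOXA (from PMAIP1), PUMA (from BBC3) and BID set the effectors free, either by occupying the survival proteins or by acting on the effectors directly, and cytochrome c released through the pores starts the caspase cascade. NOXA binds mainly MCL1 and A1. The proteins cIAP1 (from BIRC2) and cIAP2 (from BIRC3) are ubiquitin ligases at the TNF receptor, where they favour NF-kB signalling and survival over caspase 8 activation. In airway epithelium the balance among these proteins bears on how long epithelial and goblet cells persist during allergic inflammation.

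Arrays of the same group were alike, with correlations of 0.972 to 0.979 between them. The epithelial keratins KRT8 and KRT18 had mean signals of 4663 and 11242, while EPCAM, another epithelial marker, was too dim to be tested at 53.9. Of the 12 markers of other cells with a probe set, 4 were bright enough to be tested: ITGAM of the leukocyte list (101), COL1A1 and THY1 of the fibroblast list (129 and 104) and PECAM1 of the endothelial list (66.0). The other 8, PTPRC, CD14, CD3D, COL1A2, COL3A1, PDGFRB, VWF and CDH5, had mean signals from 4.69 for CDH5 to 50.2 for COL1A2. A pseudocount of 20 was added to all signals before taking logarithms. The median signal per array was 69.5 ± 3.10 in control 24 h and between 59.1 ± 1.80 and 62.4 ± 3.24 in the other groups (mean ± SD, n = 3). The 3'/5' signal ratio of beta-actin, a measure of RNA integrity, was 1.17 ± 0.07 in control 24 h and 1.18 ± 0.08 after 24 h of IL-13, against 1.001 ± 0.065 at 0 h, 1.03 ± 0.08 at 4 h and 1.08 ± 0.05 at 12 h. The mean actin ratio was higher at 24 h than at 0 h with and without IL-13. The same ratio of GAPDH ran from 0.862 to 0.907 at 0 h and from 0.875 to 0.918 in control 24 h. After 24 h of IL-13 the GAPDH ratio ran from 0.854 to 0.900, so these groups overlapped. The part of either ratio in the differences from 0 h was not tested.

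PMAIP1 moved most among the members. It was 1.69-fold and 1.70-fold lower than at 0 h after 4 h and 12 h of IL-13, and then exceeded both untreated groups at 24 h. BIRC2, and MCL1 by its brightest probe set, had their lowest signals at the same early times and their highest at 24 h of IL-13. BCL2A1 instead was lowest in untreated cells at 24 h. BAX, BAK1 and BID, by the probe set that represents each gene, passed no test. The plot of signals by array shows all 8 genes.

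**Figure D1:**
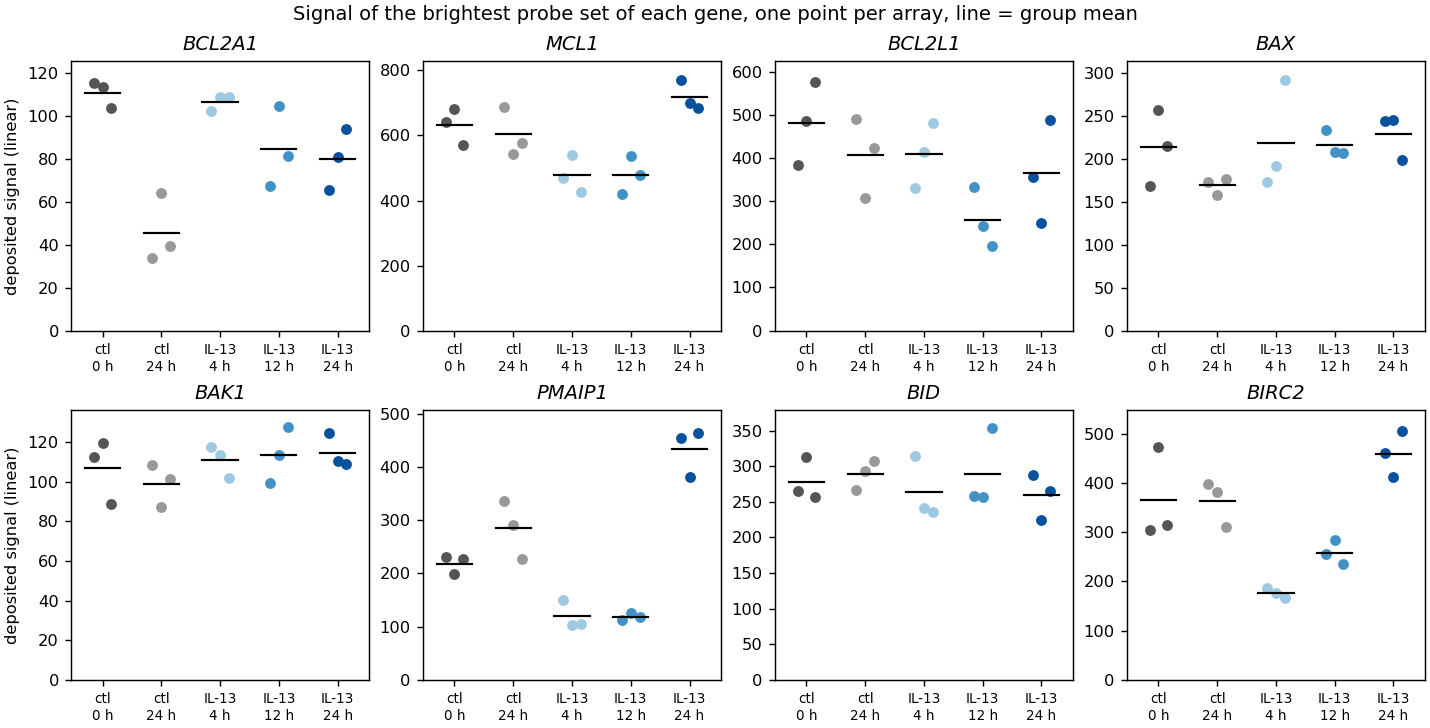
Deposited signal (linear scale, arbitrary units) of the 8 measured members on each of the 15 arrays, by group; points are arrays and horizontal lines are group means. PMAIP1 lay between 381 and 464 on the 3 arrays of 24 h IL-13 and between 102 and 151 on the 6 arrays of 4 h and 12 h.

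Promoter sequence is given for the 3 members with the largest differences, as the 150 bases before the annotated transcript start (RefSeq, GRCh38.p14). Capitals mark a match to a motif bound by ATF/CREB family factors. PMAIP1 is read on the plus strand at chr18:59899846-59899995, BIRC2 on the plus strand at chr11:102347064-102347213, and BCL2A1 on the minus strand at chr15:79971197-79971346.
PMAIP1: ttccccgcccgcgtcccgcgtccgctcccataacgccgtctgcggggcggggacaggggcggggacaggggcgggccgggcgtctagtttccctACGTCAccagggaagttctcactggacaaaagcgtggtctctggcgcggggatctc
BIRC2: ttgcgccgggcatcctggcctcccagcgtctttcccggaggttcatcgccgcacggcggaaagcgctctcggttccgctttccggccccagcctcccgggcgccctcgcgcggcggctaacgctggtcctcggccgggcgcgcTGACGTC
BCL2A1: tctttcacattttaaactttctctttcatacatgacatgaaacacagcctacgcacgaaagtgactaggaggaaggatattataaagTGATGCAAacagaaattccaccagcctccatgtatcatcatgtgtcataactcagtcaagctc

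The promoters differ in base composition: G and C make up 70.0% of the stretch in PMAIP1 and 74.0% in BIRC2, against 38.7% in BCL2A1. In BIRC2 the capitals are the first 7 letters of the cyclic AMP response element TGACGTCA, whose match runs from base -7 to base 1 and so ends on the first transcribed base. RefSeq gives BIRC2 a second start, downstream, from which the same element lies at -167 to -160. This element occurs in 1.85% of 35116 RefSeq promoter windows of 300 bases, which reach from 250 bases before to 50 after a start. In BCL2A1 the capitals from -63 to -56 match TGATGNAA, the composite element of ATF4, which 3.62% of windows hold. In PMAIP1 the capitals from -56 to -51 match ACGTCA, the core of the cyclic AMP response element, which 7.98% of windows hold. This core was added to the search after the windows had been read.

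The 15 windows of 9 members were searched on both strands; no window of MCL1 was used here. The AP-1 motif TGANTCA, in 7.71% of windows, matched in BBC3 from -113 to -107. The NF-kB motif, in 11.3% of windows, matched at 2 places of BIRC3, from -199 to -190 and from -135 to -126. The STAT6 motif, TTC and GAA with any 4 bases between them, in 6.44% of windows, matched in no member's window. The cyclic AMP response element contains its core, so those matches overlap in BIRC2. A match describes letters only, and factor binding was not measured in these samples.

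PMAIP1, the BH3-only gene for NOXA, had signals of 229.9, 198 and 227 at 0 h, and 337, 290.2 and 226 in untreated cells at 24 h. After IL-13 they were 151, 102 and 104 at 4 h, and 112, 126 and 118 at 12 h. At 24 h of IL-13 they were 453, 381 and 464. All 6 arrays of 4 h and 12 h lay below every untreated array, and all 3 arrays of 24 h of IL-13 lay above every untreated array.

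In log2 signal, PMAIP1 fell by 0.76 ± 0.14 (SE, 3 arrays a group) at 4 h against 0 h, 1.69-fold lower (adjusted p = 0.00839, limma with Benjamini-Hochberg adjustment over 6884 genes). At 12 h it was 1.70-fold lower than at 0 h (adjusted p = 0.00339). It then rose 3.23-fold from 12 h to 24 h of IL-13, a difference of 1.69 ± 0.14 (adjusted p = 7.4e-07). At 24 h of IL-13 it was 1.90-fold above 0 h (0.93 ± 0.14, adjusted p = 0.000644). Against untreated cells of the same 24 h it rose 1.49-fold (0.58 ± 0.14, adjusted p = 0.0203). The untreated groups themselves differed by 0.35 ± 0.14 between 24 h and 0 h, which did not pass (adjusted p = 0.176).

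In order of normalised level, PMAIP1 was lowest at 12 h and 4 h of IL-13, then rose through 0 h and control 24 h to 24 h of IL-13. Neighbours that were not separated by the test were 12 h and 4 h, and 0 h and control 24 h. The call against control 24 h is the least secure of these. It was lost without array c of control 24 h (log2 difference 0.43, adjusted p = 0.101), and without array a (adjusted p = 0.0665) or array c (0.0910) of 24 h of IL-13. The adjusted p ran from 0.00391 to 0.101 over its 19 alternatives. The 4 h call was lost without array a of control 0 h (adjusted p = 0.0510) or array c of 4 h (0.0633), within a range of 0.00236 to 0.0633. The other 3 PMAIP1 calls held in every alternative run.

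The second PMAIP1 probe set, 204286_s_at, was dimmer and had the same order of extremes. Its mean signals were 79.2 at 0 h and 85.5 in control 24 h. With IL-13 they were 42.7 at 4 h, 40.2 at 12 h and 147 at 24 h. When each of the 22215 probe sets was tested by itself, it rose by 1.48 ± 0.24 from 12 h to 24 h (adjusted p = 0.00656). Its difference of 0.78 at 24 h against control 24 h did not pass (adjusted p = 0.121), nor did its difference of -0.72 at 4 h (adjusted p = 0.402). In that wider test the first probe set, 204285_s_at, was at 0.0515 against control 24 h.

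BID, the BH3-only gene whose product links death receptors to mitochondria after cleavage by caspase 8, gave conflicting probe sets. By 211725_s_at, the brighter, signals were 267, 294 and 307 in control 24 h. With IL-13 at 24 h they were 287, 225 and 265, and the groups overlapped (-0.17 ± 0.14, adjusted p = 0.508). By 204493_at they were 67.4, 76.5 and 71.6 in control 24 h and 112, 109 and 108 after IL-13, with no overlap. This probe set rose by 0.65 ± 0.15 in the test over every probe set (adjusted p = 0.0417). No direction is therefore given for BID at 24 h. Its sign by gene also turned with median scaling (0.02) and with the mean of its probe sets (0.24).

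BCL2A1 encodes A1, a short-lived survival protein and a well-known NF-kB target. Its signals were 115, 113 and 104 at 0 h and 33.8, 63.8 and 39.2 in control 24 h. After IL-13 they were 102, 108 and 108 at 4 h, 67.3, 104 and 81.1 at 12 h, and 65.2, 80.9 and 93.8 at 24 h. Control 24 h was below every other array of the study.

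Without IL-13, BCL2A1 fell by 1.16 ± 0.18 in log2 signal from 0 h to 24 h, 2.24-fold lower (adjusted p = 0.00208), a call that held in all 18 alternatives that kept the gene. With 24 h of IL-13 it was 1.73-fold higher than in control 24 h (0.79 ± 0.18, adjusted p = 0.0152). No comparison of an IL-13 time with 0 h passed for this gene, although the 24 h arrays all lay below those of 0 h. The rise over control 24 h was lost with only these groups in the model (adjusted p = 0.0683). It was also lost without array a (0.66, adjusted p = 0.0720) or c (0.70, adjusted p = 0.0678) of control 24 h, or array c of 24 h of IL-13 (0.68, adjusted p = 0.0894). Over its alternatives the adjusted p ran from 0.00315 to 0.0894. At these low signals the added pseudocount makes the fold an understatement.

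MCL1 encodes a survival protein with a very short half-life, the main partner of NOXA. By its brightest probe set, 200797_s_at, signals were 640.4, 682 and 571 at 0 h and 689, 543 and 578 in control 24 h. After IL-13 they were 469, 541 and 427 at 4 h, 419.6, 536 and 478 at 12 h, and 772, 699 and 686 at 24 h. The arrays of 4 h and 12 h lay below all those of 0 h and 24 h of IL-13, while 24 h of IL-13 overlapped control 24 h.

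The rise of MCL1 from 12 h to 24 h of IL-13 passed, at 1.46-fold (0.55 ± 0.12, adjusted p = 0.00874). The differences from 0 h were -0.36 ± 0.12 at 4 h (adjusted p = 0.210) and -0.36 ± 0.12 at 12 h (adjusted p = 0.105), and neither passed. Against control 24 h the difference was 0.17 ± 0.12 (adjusted p = 0.381). The rise from 12 h was lost when the 5 MCL1 probe sets were averaged (0.24, adjusted p = 0.214) and without array a of 12 h (adjusted p = 0.0570). Its adjusted p ran from 0.00537 to 0.214 over the alternatives.

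The MCL1 probe sets differed. In the test over every probe set, 200798_x_at fell at 4 h (-0.42, adjusted p = 0.0466) and at 12 h (-0.45, adjusted p = 0.0146) against 0 h and rose from 12 h to 24 h (0.52, adjusted p = 0.00604). The third set, 200796_s_at, with group mean signals of 107 to 138, had the same signs at 12 h against 0 h (-0.29) and from 12 h to 24 h (0.25) and passed neither test. The dim sets 214056_at and 214057_at, with group mean signals of 38.8 to 90.9, differed by 0.02 and -0.16 from 12 h to 24 h. At 12 h against 0 h both went the other way. There 214056_at was higher by 0.37, which did not pass, and 214057_at had mean log2 signals of 6.32 against 5.96. MCL1 is spliced into transcripts with opposite effects on survival, and which transcript each probe set reads was not tested. The plot by probe set shows all 5 beside those of PMAIP1, BCL2L1, BAX and BID.

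**Figure D2:**
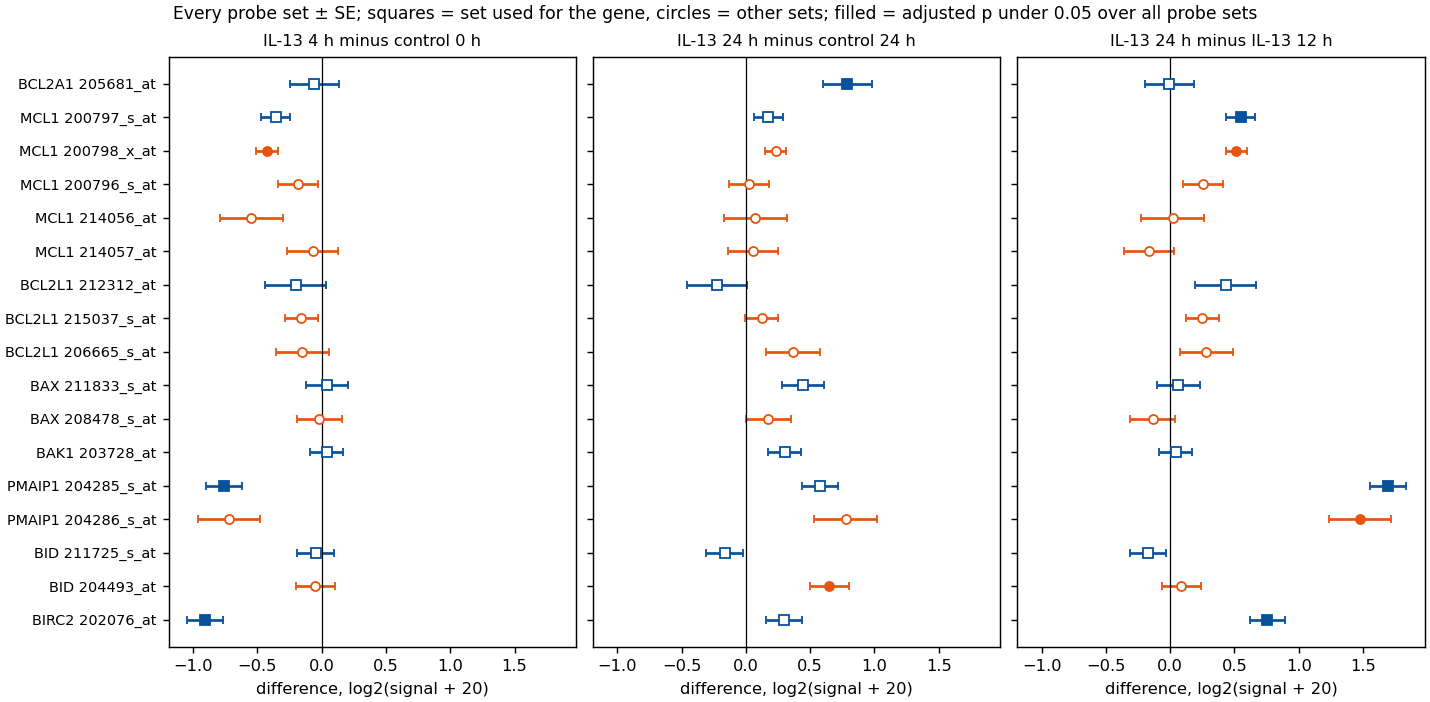
Log2 difference (± SE) of the 17 member probe sets in 3 of the comparisons, from the test over every probe set; squares are the sets that represent the gene and filled symbols passed an adjusted p of 0.05. The MCL1 sets 200797_s_at and 200798_x_at rose by 0.55 and 0.52 from 12 h to 24 h of IL-13, against 0.02 for 214056_at and -0.16 for 214057_at.

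BCL2L1, which gives the survival protein BCL-xL and by alternative splicing the pro-death BCL-xS, had the largest standard error of the members, 0.22 on the log2 scale. By 212312_at signals were 383, 487 and 576 at 0 h and 491, 308 and 422 in control 24 h. After IL-13 they were 332, 413 and 481 at 4 h, 332, 243 and 195 at 12 h, and 357, 249.7 and 487 at 24 h. The 12 h arrays were all below those of 0 h, and those of 24 h of IL-13 overlapped every other group.

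At 12 h of IL-13, BCL2L1 was 1.80-fold lower than at 0 h (-0.85 ± 0.22, adjusted p = 0.0357). This call was lost in 6 of 19 alternatives, whose adjusted p ran from 0.00423 to 0.173 over all 19. They were no filter (0.0914), no variance trend (0.0656), and leaving out array b or c of either group (0.0928 to 0.173). The difference of 12 h from 4 h was -0.64 ± 0.22 (adjusted p = 0.290) and that of IL-13 from control at 24 h was -0.23 ± 0.22 (adjusted p = 0.564), neither past the threshold. The sign at 24 h turned with median scaling (0.00017) and with the mean of its probe sets (0.09). In the wider test over 22215 probe sets, 212312_at did not pass at 12 h against 0 h (adjusted p = 0.111), nor did 206665_s_at (0.0682), while 215037_s_at fell (-0.64, adjusted p = 0.0246). In that test 206665_s_at fell in untreated cells from 0 h to 24 h (-0.91, adjusted p = 0.0452).

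The pore-forming effectors BAX and BAK1 passed in none of the 7 comparisons; of their 14 differences, 2 had an unadjusted p under 0.05, both for IL-13 against control at 24 h. BAX had signals of 173, 158 and 176 in control 24 h, below the 243, 245 and 199 of IL-13 at 24 h, with no overlap. The difference was 0.44 ± 0.16 (adjusted p = 0.0997). The other BAX probe set, 208478_s_at, differed by 0.18. BAK1 had signals of 108, 87.4 and 101 in control 24 h and 125, 110.5 and 109 after IL-13, with no overlap (0.30 ± 0.13, adjusted p = 0.168). In the other groups BAX lay between 168 and 292 and BAK1 between 88.9 and 128.

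BIRC2, the gene of cIAP1, had signals of 305, 472 and 315 at 0 h and 397, 382 and 310.3 in control 24 h. After IL-13 they were 186, 177 and 167 at 4 h, 254, 284 and 234 at 12 h, and 459.8, 413 and 505 at 24 h. Each time of IL-13 formed a separate band, lowest at 4 h, and the bands of 4 h and 12 h lay below every untreated array.

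BIRC2 fell 1.87-fold at 4 h against 0 h (-0.91 ± 0.14, adjusted p = 0.00156) and rose 1.69-fold from 12 h to 24 h of IL-13 (0.76 ± 0.14, adjusted p = 0.00293). Both calls held in all 19 alternatives run. Between these times the difference of 12 h from 4 h was 0.49 ± 0.14 (adjusted p = 0.183) and that of 12 h from 0 h was -0.42 ± 0.14 (adjusted p = 0.109). At 24 h of IL-13, BIRC2 differed by 0.34 ± 0.14 from 0 h (adjusted p = 0.163) and by 0.30 ± 0.14 from control 24 h (adjusted p = 0.199). Neither of these passed, though IL-13 and control at 24 h did not overlap. Without array b of 0 h, the highest of its group, the difference from 0 h was 0.53 and passed (adjusted p = 0.0250, in a range of 0.0250 to 0.441 over 19 alternatives).

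**Figure D3:**
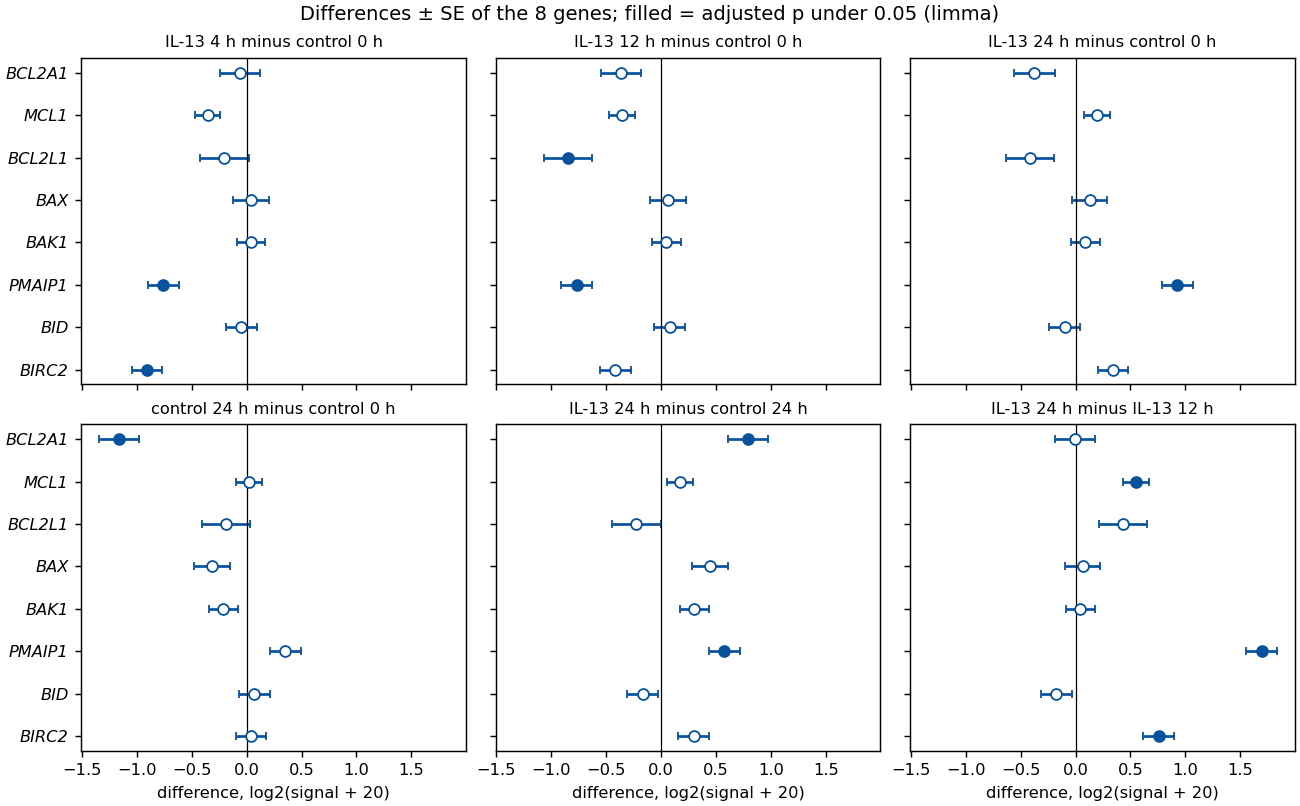
Log2 difference (± SE, 3 arrays a group) of the 8 measured members in 6 of the 7 comparisons (12 h against 4 h of IL-13 is not drawn); filled points passed an adjusted p of 0.05. PMAIP1 was at -0.76 at 4 h and 0.93 at 24 h of IL-13 against 0 h, and BIRC2 at -0.91 and 0.34.

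Counted over the 8 tested members, 11 of 56 differences passed, 6 of them higher and 5 lower, in 5 genes. Of all tested genes, between 0 and 7% passed in a comparison. PMAIP1 alone gave 5 of the 11, and the comparisons share arrays, so these are not 11 separate results. At 24 h of IL-13 against control 24 h, 2 members were higher, BCL2A1 and PMAIP1, and 0 lower, where 7% of all tested genes passed in either direction and 3.94% as higher. The median difference of the members was 0.30, against 0.0016 for all tested genes, and 5 of 8 members did not overlap between the groups, where 26.2% of all genes did not. Median scaling, which shifted the median of all tested genes to 0.14, called 5 members, adding MCL1, BAX and BIRC2. The 7% and 3.94% hold for quantile normalization only. The share of all genes that passed with median scaling is not given here. The count of 5 is therefore not read as a result about the members. Summed signals of the 5 fibroblast markers were 195 to 241 after 24 h of IL-13 and 340.2 to 373 in control 24 h, and those of the 4 leukocyte markers with a probe set 107 to 153 and 160 to 202. No marker was at 0, and the part of these values in the members' differences was not tested.

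Untreated cells at 24 h had 1 member lower than at 0 h, BCL2A1, where 3.62% of genes passed and 1.89% were lower. Only that member of 8 did not overlap (24.7% of all genes), and the median of the members was -0.08. At 4 h of IL-13 against 0 h, PMAIP1 and BIRC2 were lower, 2 of 8, where 1.22% of genes passed and 0.872% were lower. Of the members, 3 did not overlap (17.3% of all genes) and the median was -0.13. At 12 h against 0 h, PMAIP1 and BCL2L1 were lower, 2 of 8, where 4.14% of genes passed and 2.59% were lower. Here 4 members did not overlap (23.7% of all genes), with a median of -0.36.

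At 24 h of IL-13 against 0 h, 1 member was higher, PMAIP1, where 6.87% of genes passed and 3.4% were higher, and 3 did not overlap (26.7% of all genes), with a median of 0.11. From 12 h to 24 h of IL-13, 3 of 8 were higher, PMAIP1, MCL1 and BIRC2, where 6.2% of genes passed and 4.14% were higher. The same number did not overlap (25% of all genes) and the median was 0.25. From 4 h to 12 h, limma called 0 members and 0 of 6884 genes; 2 members and 697 genes had an unadjusted p under 0.05, and 2 members did not overlap (14.9% of all genes). In the 6 comparisons other than IL-13 against control at 24 h, the median of all tested genes was between -0.01 and 0.01.

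When every one of the 22215 probe sets was tested by itself, the share that passed was 1.95% at 24 h of IL-13 against control 24 h and 1.32% in untreated cells. Against 0 h it was 0.333% at 4 h, 1.35% at 12 h and 2.18% at 24 h of IL-13. From 12 h to 24 h it was 1.66% of probe sets, and from 4 h to 12 h 0. These shares stand behind the single probe sets named above.

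Lists of other death pathway genes were counted in the same way. A gene of a list counts as passed if it passed in any of the 7 comparisons. The share of all tested genes that did so is not given here, so the counts below are not read as results about the lists. Of all gene and comparison pairs tested, 17.4% had an unadjusted p under 0.05. Of 13 other BCL2 family genes, 6 were tested (BCL2L2, BCL2L13, BCL2L14, BAD, BNIP3 and BNIP3L) and 0 passed in limma in any comparison, with an unadjusted p under 0.05 in 5 of 42 differences. Of 9 caspase and apoptosome genes, 6 were tested and 0 passed, with 9 of 42 at an unadjusted p under 0.05. APAF1, the scaffold of the apoptosome, and the initiator caspases CASP8 and CASP9 were among these.

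Among 7 other inhibitors of apoptosis and their antagonists, 3 were tested and 1 passed. BIRC5, the gene of survivin, which is also a mitotic protein, fell at 24 h of IL-13 against 0 h (-0.44 ± 0.10, adjusted p = 0.0125) and against 12 h (-0.55 ± 0.10, adjusted p = 0.00274), from a mean signal of 329.7 at 0 h and 352 at 12 h to 236. With the mean of its probe sets neither call held (-0.18 and -0.33), and the call against 0 h was also lost without array b of 0 h or array c of 24 h. DIABLO and HTRA2, antagonists of these inhibitors, passed nowhere.

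In the death receptor and TNF receptor list, 6 of 11 genes were tested and 2 passed. FADD, the adaptor that brings caspase 8 to death receptors, was higher after 24 h of IL-13 than in control 24 h, with mean signals of 229 and 169 (0.44 ± 0.12, adjusted p = 0.0289). TNFRSF10B, a receptor for TRAIL, was lower at 12 h of IL-13 than at 0 h, with means of 377 and 582 (-0.57 ± 0.13, adjusted p = 0.0182). The FADD call was lost with only these groups in the model and without array b or c of control 24 h or array c of 24 h of IL-13 (adjusted p up to 0.138). The TNFRSF10B call was lost without array a or b of 0 h or array c of 12 h (adjusted p up to 0.0821).

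BCL2A1 and BIRC3 are NF-kB targets, so 15 further targets were examined, of which 11 were tested. CCL2, a monocyte chemokine, was lower in control 24 h than at 0 h (-1.20 ± 0.21, adjusted p = 0.00463) and higher after 24 h of IL-13 than in control 24 h (0.90 ± 0.21, adjusted p = 0.0149). Its mean signals in the order 0 h, control 24 h and IL-13 at 4 h, 12 h and 24 h were 149, 63.1, 215, 203 and 118. As for BCL2A1, control 24 h was the lowest group. Its rise at 24 h was lost with only these groups in the model and without array c of control 24 h or array a or c of 24 h of IL-13 (adjusted p up to 0.0804).

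CXCL2, a neutrophil chemokine, and IER3, an early response gene that modulates survival, had another course. CXCL2 fell against 0 h at each time of IL-13, with differences of -1.44 at 4 h, -1.38 at 12 h and -0.56 at 24 h, and rose by 0.82 from 12 h to 24 h. IER3 fell at 4 h (-0.52) and 12 h (-0.77) and rose by 0.55 from 12 h to 24 h. The CXCL2 difference at 24 h was lost without any 1 of the 6 arrays, and that of IER3 at 4 h without array b of 0 h or array a of 4 h. CXCL1 fell at 12 h (-0.74 ± 0.19, adjusted p = 0.0345) and RELB, an NF-kB subunit, at 24 h of IL-13 (-0.62 ± 0.17, adjusted p = 0.0312), both against 0 h. These calls were lost in 8 and 5 of 18 alternatives. NFKBIA, TNFAIP3, NFKB1, NFKB2, NFKBIE and ICAM1 passed nowhere. The list's median at 24 h of IL-13 against control 24 h was -0.06. Against 0 h the list's median was -0.28 in control 24 h, and -0.08, -0.26 and -0.29 at 4 h, 12 h and 24 h of IL-13.

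PMAIP1, BAX and BBC3 are p53 targets as well. Of 12 other p53 targets, 6 were tested and 1 passed: TP53I3 was lower at 24 h than at 12 h of IL-13 (-0.30 ± 0.09, adjusted p = 0.0471), a call lost in 12 of 19 alternatives. CDKN1A, the cell cycle inhibitor p21, had mean signals of 631 at 0 h and 547 in control 24 h. With IL-13 its means were 800.4 at 4 h, 611 at 12 h and 746 at 24 h, and it passed nowhere. SESN1, ZMAT3, DDB2 and AEN also passed nowhere.

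The genes whose log2 signal was most like that of each member over the 15 arrays were found by Pearson correlation among all tested genes. All points share the same arrays and groups, so the coefficients describe and do not test. Nearest to PMAIP1 were TSC22D3 (r = 0.97), the glucocorticoid-induced leucine zipper gene, CCDC59 (0.97) and GGNBP2 (0.96). Nearest to MCL1 were CARS1 (0.95), CCNB1IP1 (0.93) and TARS1 (0.92), of which CARS1 and TARS1 encode cysteinyl- and threonyl-tRNA synthetases. CARS1 had mean signals of 1291 at 0 h and 1274 in control 24 h, then with IL-13 928 at 4 h, 875 at 12 h and 1522 at 24 h. Nearest to BIRC2 were CCDC90B (0.92), SNAPC1 (0.91) and PHF21A (0.90).

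For BCL2A1 the nearest were TTC27 (0.90), LRFN4 (0.88) and PSMD8 (0.88), each with its lowest group mean in control 24 h: 179 for TTC27, 28.4 for LRFN4 and 1154 for PSMD8. Since these genes were chosen by correlation with BCL2A1, the shared lowest group is no separate result. For BCL2L1 the nearest were ZC3H7B (0.89), SLC1A5 (0.81), a glutamine transporter, and ATXN2 (0.81). Among the members, PMAIP1 correlated with MCL1 at 0.86 and with BIRC2 at 0.86, and MCL1 with BIRC2 at 0.83. With the group means taken out these were 0.22, 0.29 and 0.35, so most of the likeness lay between groups and not between arrays of a group.

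**Figure D4:**
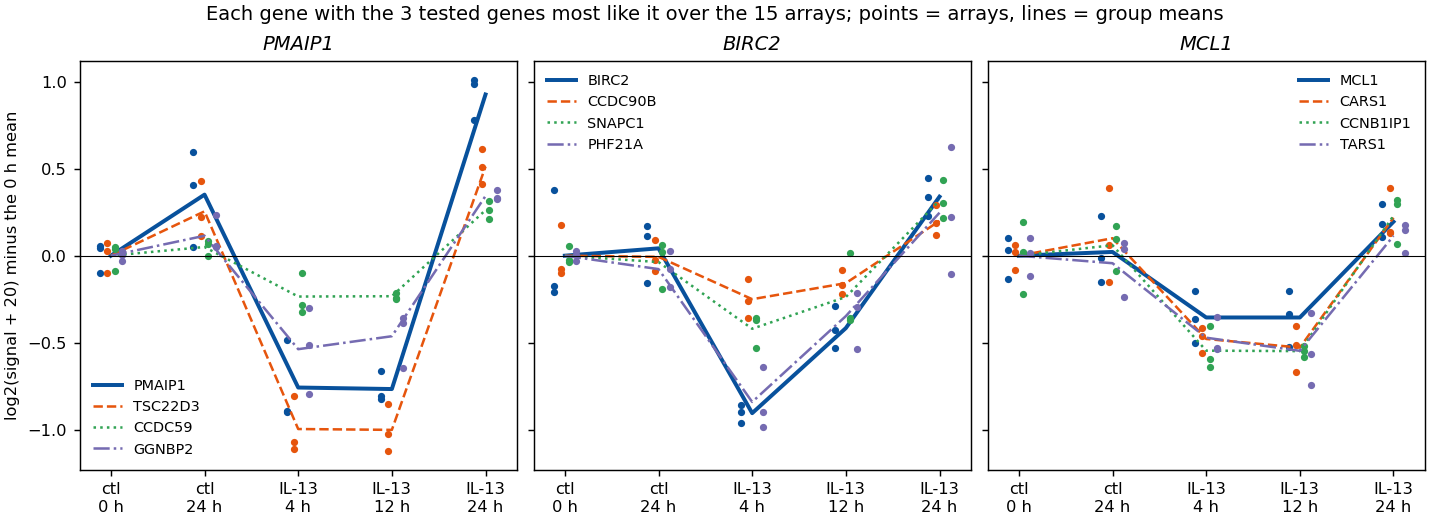
Normalised log2(signal + 20) of PMAIP1, BIRC2 and MCL1, each with its 3 most correlated genes, minus each gene's mean at 0 h; points are arrays and lines join group means. All 12 genes have their lowest group means at 4 h or 12 h of IL-13 and their highest at 24 h of IL-13. The correlated genes were chosen for likeness over these arrays, so the shared extremes are no separate result.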

How the data were processed

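Analysis began from the intensity of each probe set, deposited by the authors on a linear scale. Their steps before deposit are not given in the sources used here. Every array has a 2% trimmed mean of 150.0. Detection calls and scanner files were not used here. A pseudocount of 20 (the 25th percentile) was added, log2 was taken, and the arrays were quantile normalized because their medians differed by up to 0.269 log2. Of the probe sets, 19065 carry 1 symbol; each gene was represented by its brightest probe set, cross-hybridizing _x_at sets last. Genes above the 50th percentile of mean log2 signal were tested, 6884 in all.

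limma 3.58.1 (R 4.3.3) was fitted with 1 mean per group over 15 arrays (10 residual degrees of freedom), empirical Bayes with a variance trend, two-sided, Benjamini-Hochberg adjustment over all tested genes, threshold 0.05, in 7 comparisons. Overlap of groups was judged on normalised values. The steps were tested on simulated data. With 3 arrays a group, precision is limited. The replicate letters a, b and c were not used to pair the arrays in the main fit. Correlations of same-letter deviations ran from -0.225 to 0.107, and in 0 of 7 comparisons were all over 0.1. With 3 arrays a group, these values cannot settle whether same-letter arrays came from the same culture or day.

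The members, lists and tests were chosen with earlier results of these data known. All members were followed in every comparison; of other lists, genes past the threshold were named, up to 4 per comparison, and the 3 genes most correlated with a member. Alternatives were the deposited, median and tested-gene median scaling, pseudocounts of 1 and 62, no filter, the 75th percentile filter, the mean of probe sets, every probe set above the filter, only the groups compared, no variance trend, array weights, the replicate block and leaving out each array. Promoter windows are RefSeq's on GRCh38.p14; the files name no build.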

Additional observations from a re-analysis of the deposited data

How the results depend on the processing

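Of 207 alternatives to the 11 member differences past the threshold, 190 kept the call, 17 lost it and 0 turned the sign; for the 16 differences of other list genes that passed, 248 of 296 kept it and 48 lost it. PMAIP1 at 12 h and 24 h against 0 h and at 24 h against 12 h, BIRC2 at 4 h and at 24 h against 12 h, and BCL2A1 in untreated cells kept their calls in every alternative run; the calls that were lost are given beside the results. Of 246 alternatives to 13 printed differences that did not pass, 4 turned the sign (for IL-13 against control at 24 h, BCL2L1 to 0.00017 with median scaling and 0.088 with the mean of probe sets, and BID to 0.023 and 0.24) and 4 passed (MCL1, BAX and BIRC2 against control 24 h with median scaling, and BIRC2 at 24 h against 0 h without array b of 0 h). The count of members called at 24 h of IL-13 against control 24 h, 2, became 5 with median scaling, 1 with the 75th percentile filter (which left 6 members) and 1 with only the groups compared. The shares of all genes given with the results belong to the main fit, and those of the alternatives are not given here. Changes in the counts of members, above and below, are therefore not read as results about the members. In untreated cells at 24 h the count of 1 became 0 with the 75th percentile filter, which removed BCL2A1, and 2 with the mean of probe sets; at 12 h against 0 h the count of 2 became 1 with no filter and 1 with no variance trend. Leaving out 1 array at a time gave 0 to 2 members at 24 h against control 24 h, 1 to 1 in untreated cells, 1 to 2 at 4 h, 1 to 2 at 12 h and 1 to 2 at 24 h against 0 h, 0 to 0 from 4 h to 12 h, and 2 to 3 from 12 h to 24 h. With the replicate block the counts of members were 2, 1, 2, 2, 1, 0 and 3 in the order of the comparisons above, as without it, and the block lost only the TP53I3 call (adjusted p = 0.0766). The cause of these changes was not tested. Members near the filter, BCL2A1 and BAK1 among them, are the most limited by signal over background.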
